A study of Mus musculus with 19 samples.

Results

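Heat shock chaperones were followed through the lungs of mice gavaged with a mixture of 8 polycyclic aromatic hydrocarbons. The genes were fixed by name: the cytosolic HSP70 proteins Hspa1a, Hspa1b and Hspa8, the HSP110 protein Hsph1, the HSP40 cochaperone Dnajb1, the small heat shock protein Hspb1, the cytosolic HSP90 protein Hsp90aa1, the mitochondrial chaperonins Hspd1 and Hspe1, and Hspa5, the HSP70 protein of the endoplasmic reticulum. Of these 10 genes, 9 had a probe on the array, which carries 20660 gene symbols, and no probe identifier mapped to Hspa1b. The members were thus 14 of the 55681 probes on the array, and 13 of them were among the 30984 probes tested. The probe that was left out, Hspe1 probe 1, was well above background in 5 of 18 mice, whereas each of the other 13 was so in all 18.

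All 18 mice were male MutaMouse animals, a transgenic strain kept for mutation assays, about 12 weeks of age, so every group including the controls carried the transgene. Group D0 (5 mice) received olive oil by gavage on 28 consecutive days, and groups D1 (4 mice), D2 (5 mice) and D3 (4 mice) received the mixture in olive oil at 15, 30 and 60 mg/kg-day, expressed as benzo[a]pyrene equivalents. Lungs were taken 72 h after the last dose. Each array compared 1 lung RNA, labelled red, with a commercial reference RNA made of several mouse cell lines, labelled green, and values below are log2 ratios of red over green per mouse. The ratios were normalized by loess within each array. A ratio of 0 therefore means the typical ratio of probes of like signal on that array, not a level equal to the reference. Levels of different probes are not compared. In whole lung, more cells of a type and more RNA per cell cannot be told apart.

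The lung label was borne out by its markers: mean log2 ratios of the surfactant genes of alveolar type 2 cells lay between 5.08 and 5.98 in all mice, and those of club cell genes between 6.57 and 8.02. The mean log2 ratio of cardiac muscle genes, in contrast, ran from 0.37 to 4.27 between mice. The arrays lay on 3 slides, each of which held every group, but the position of an array on the slide followed the dose, so position and dose cannot be told apart. The array labelled D2 Mouse 23 has an animal number that falls among those of D1, and the group sizes in the methods of the study are those that D1 and D2 would have if this mouse belonged to D1. It was kept in D2 as labelled, so every D1 and D2 value is open to this doubt, and the main D1 and D2 results are also given with the mouse moved to D1. No label says that mice of a group came from different litters or cages, and p-values measure the spread between these mice.

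Heat shock chaperones bind unfolded protein and return it to its folded state or hand it on for breakdown. The HSP70 proteins work in a cycle driven by ATP, in which HSP40 proteins deliver the client and HSP110 proteins release the nucleotide. Heat shock factor 1 (HSF1) switches on the inducible members within minutes of heat, oxidants or other insults that unfold protein, by binding repeats of the letters GAA and TTC in their promoters, the heat shock element. Hspa1a, Hspa1b, Hsph1 and Dnajb1 belong to the strongly inducible members, Hspa8 is made in unstressed cells, and Hspa5 answers to unfolded protein in the endoplasmic reticulum instead.

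Stretches of the members' promoters are shown because the heat shock element is what the inducible members are known for, and because Hspa1a and Hspa1b are nearly the same there. Windows from 250 bases before to 50 bases after the start of transcription were searched, as listed by RefSeq for assembly GRCm38.p6, and 8 of the 10 genes had a window (Hsp90aa1 and Hspa8 had none in the table used). The searched letters were GAANNTTC and TTCNNGAA, each of which reads the same on both strands, and a longer form with a further unit, GAANNTTC followed by NNGAA, on both strands, which contains both short forms. GAANNTTC was found in 7.86% of all 32851 windows, TTCNNGAA in 8.52% and the longer form in 0.603%. Either short form was present for 6 of the 8 genes with a window, against 17.0% of all genes. A match is a description of the letters and not a measured binding site. Capitals mark the matches in the stretches that follow, each written 5′ to 3′ on the strand of its gene: Hspa1a at chr17:34972187-34972306 (minus strand), Hspa1b at chr17:34959269-34959388 (minus strand), Hsph1 at chr5:149636352-149636381 (minus strand), Hspb1 at chr5:135887769-135887858 (plus strand), Hspe1 at chr1:55088053-55088082 (plus strand) and Hspa5 at chr2:34771960-34772059 (plus strand).
Hspa1a: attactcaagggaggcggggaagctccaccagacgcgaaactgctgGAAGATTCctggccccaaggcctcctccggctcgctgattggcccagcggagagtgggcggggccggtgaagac
Hspa1b: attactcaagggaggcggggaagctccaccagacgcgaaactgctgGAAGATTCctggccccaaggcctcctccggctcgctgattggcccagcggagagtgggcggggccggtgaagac
Hsph1: tgggtagaatctTTCTCGAAggctcgagaa
Hspb1: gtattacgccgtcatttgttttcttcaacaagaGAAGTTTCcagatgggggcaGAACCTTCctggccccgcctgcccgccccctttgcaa
Hspe1: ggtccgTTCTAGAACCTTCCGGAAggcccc
Hspa5: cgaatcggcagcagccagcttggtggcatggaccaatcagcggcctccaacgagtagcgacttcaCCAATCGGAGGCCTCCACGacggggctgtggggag

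The stretches of Hspa1a and Hspa1b were identical over all 120 bases shown, and their windows agreed at 247 of the 250 bases upstream of the start. The genes lie 10120 bases apart on chromosome 17. The sequence of the Hspa1a probe was not used here, so whether it also reads Hspa1b transcripts could not be checked, and its values below may hold both. The element of Hspa1a began 104 bases before the start. Hspb1 held a pair of short elements. Hsph1 held the tail-to-tail form before its start, and the longer form 37 bases after it (16 bases by the other start listed). The Hspe1 stretch carried the longer form in a pair of overlapping copies. It lies in the promoter that Hspe1 shares with Hspd1, whose gene runs the other way and overlaps the Hspe1 gene by 96 bases at the 5′ end. The Hspa5 window held no heat shock element of these forms but the ER stress element, CCAAT and CCACG with 9 bases between them, found in 0.119% of all windows (both strands) and marked by the capitals above. The windows of Dnajb1 held neither a heat shock element of these forms nor the full ER stress element.

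The inducible cytosolic members were highest in 1 vehicle control. Hspa1a (NM_010479) had log2 ratios of 0.20, 4.00, 0.97, 0.73 and 1.05 in D0 mice 1 to 5. In D1 they were -0.34, 1.24, 0.14 and 0.75 in mice 21, 22, 24 and 25, and in D2 they were 0.54, 0.29, -0.18, -0.27 and -0.21 in mice 23, 26, 28, 29 and 30. In D3 they were -0.048, 0.14, -0.093 and -0.017 in mice 31, 32, 34 and 35. Control mouse 2 thus stood far above all other mice, and every D3 mouse lay below every control. The unnormalized red signal behind it was 3886 in mouse 2 against 188 to 469 in the other controls. The SD of Hspa1a was 1.5 in D0 (0.38 without mouse 2), 0.69 in D1, 0.36 in D2 and 0.10 in D3, and differences in spread were not tested. The red signals of Hspa1a were low in D3, at 163 to 221, against a median of 103 for the untested Hspe1 probe 1. With no background subtracted, its ratios, SDs and fold differences may be compressed at such signals. With signals corrected by the scanner software its log2 difference of D3 from D0 was -1.84, against -1.40 here.

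**Figure D1:**
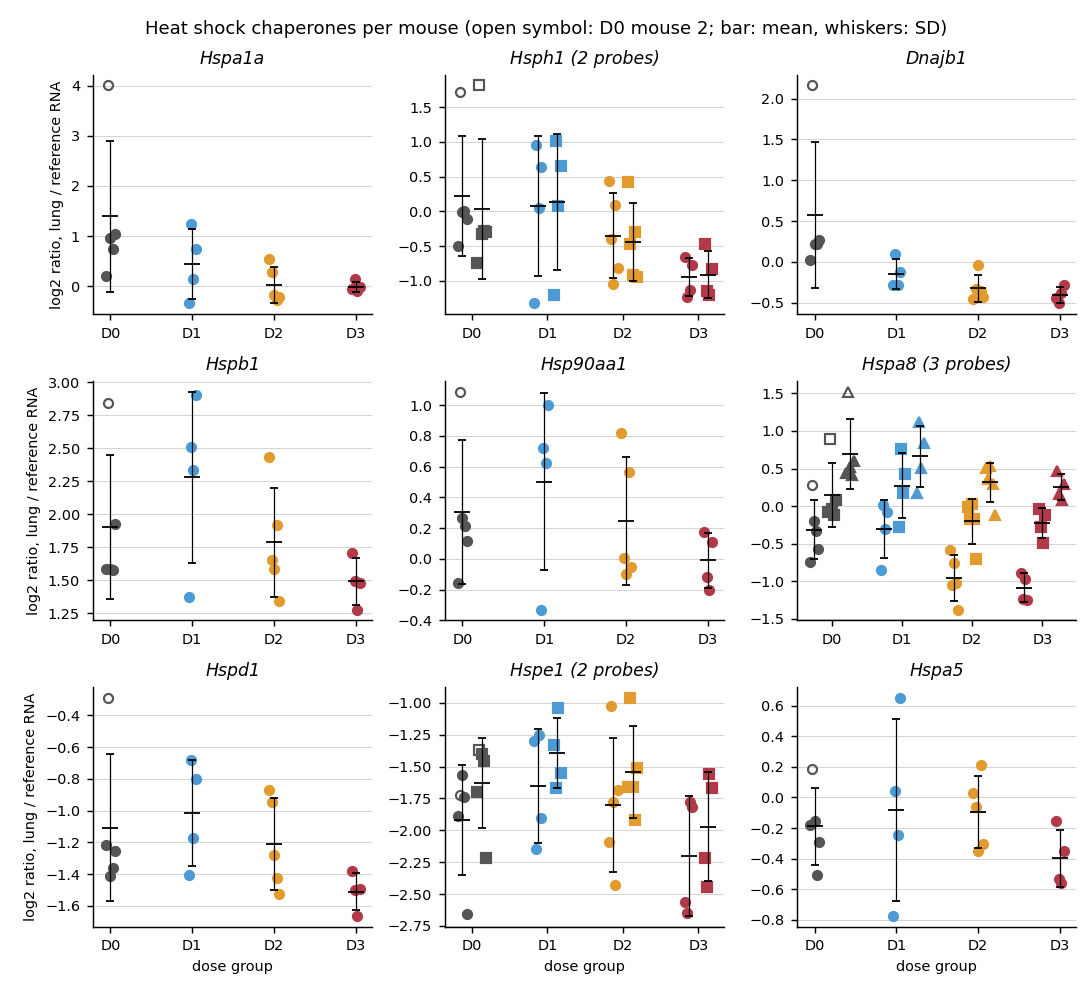
Log2 ratio of lung over reference RNA (y axis) by dose group (x axis) for the 9 chaperone genes with a tested probe. Each symbol is 1 mouse (circles, squares and triangles for probes in their numbered order), the horizontal bar is the group mean and whiskers are the SD over 4 or 5 mice. The open symbol, D0 mouse 2, is the highest of all mice for Hspa1a (4.00), Hsph1, Dnajb1 (2.16), Hsp90aa1, Hspa8 and Hspd1.

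Dnajb1 (NM_018808), the HSP40 protein that partners inducible HSP70, had log2 ratios of 0.024, 2.16, 0.22, 0.22 and 0.26 in D0. They were -0.28, 0.10, -0.28 and -0.13 in D1. In D2 they were -0.45, -0.33, -0.041, -0.36 and -0.42, and in D3 -0.44, -0.51, -0.38 and -0.28. The D2 and D3 mice all lay below the controls with no overlap. At D2, 1.6% of all tested probes were lower with no overlap. Apart from mouse 2, Dnajb1 was among the tightest members in D0, with an SD of 0.11 over the other 4 controls against 0.89 over all 5.

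Hsph1 (NM_013559), the nucleotide exchange factor of HSP70, was read by a pair of probes that ran together over the 18 mice (r = 0.979). By probe 1 its log2 ratios were -0.50, 1.72, -0.0032, -0.0022 and -0.12 in D0, and -1.32, 0.95, 0.043 and 0.63 in D1. In D2 they were 0.44, -0.40, -1.05, 0.086 and -0.81, and in D3 -0.66, -1.23, -1.13 and -0.77. Mice 22 and 25 were also high for this gene, mouse 21 was the lowest of all, and D3 did not overlap with D0. By probe 2, D3 ran from -1.20 to -0.47 and overlapped with D0, where mouse 1 stood at -0.74.

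In the other cytosolic members control mouse 2 was again the highest control, with smaller excesses. Hspb1 (NM_013560), which holds unfolded protein in a soluble state without ATP, had log2 ratios of 1.58, 2.84, 1.58, 1.58 and 1.93 in D0. In D1 they were 1.37, 2.51, 2.34 and 2.90. They ran from 1.35 to 2.44 in D2, with mouse 23 highest, and from 1.28 to 1.71 in D3. Mouse 25 of D1 thus exceeded even control mouse 2.

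Hsp90aa1 (NM_010480), the inducible HSP90 that completes the folding of kinases and steroid receptors, had log2 ratios of -0.16, 1.09, 0.27, 0.21 and 0.12 in D0. In D1 they were -0.33, 0.72, 0.62 and 1.00. D2 reached from -0.10 to 0.82 and D3 from -0.20 to 0.17, so that all groups overlapped. Hspa8 (NM_031165), the HSP70 protein of unstressed cells, had 3 probes. By probe 1 its log2 ratios were -0.75, 0.28, -0.20, -0.34 and -0.57 in D0. In D1 they were -0.85, 0.014, -0.31 and -0.082. In D2 they were -0.58, -1.05, -0.75, -1.02 and -1.38, and in D3 -0.88, -1.24, -0.96 and -1.25. All D3 mice were below all controls by this probe. Probes 2 and 3 followed each other closely (r = 0.980) and probe 1 less so (r = 0.856 and 0.868), and by both of them D3 overlapped with D0.

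Of the mitochondrial chaperonins, which form the folding chamber and its lid, the correlations of Hspd1 (NM_010477) with the cytosolic members were higher than those of Hspe1 (NM_008303). The correlations of both genes with these members were lower without control mouse 2. The log2 ratios of Hspd1 were -1.22, -0.29, -1.41, -1.36 and -1.25 in D0, and between -1.66 and -1.38 in D3. Over the 18 mice the r of Hspd1 with the cytosolic probes lay between 0.656 (Dnajb1) and 0.911 (Hsph1 probe 2), and without mouse 2 between 0.221 and 0.848 for the same probes. With Hsph1 probe 2, Hspe1 probe 3 had an r of 0.204, and of 0.127 without mouse 2. Hspe1 and Hspd1 had an r of 0.118 by probe 2 and 0.294 by probe 3, although they share a promoter. The tested Hspe1 probes went together (r = 0.958), with D0 mouse 5 lowest of the controls at -2.66 and -2.22. All these correlations are descriptions over mice that share arrays, slides and groups.

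Hspa5 (NM_022310), the sentinel of the endoplasmic reticulum, had log2 ratios of -0.18, 0.19, -0.15, -0.51 and -0.29 in D0. Its extremes lay in D1, with -0.77 in mouse 21 and 0.65 in mouse 25, and D3 ran from -0.56 to -0.16. All groups overlapped.

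**Figure D2:**
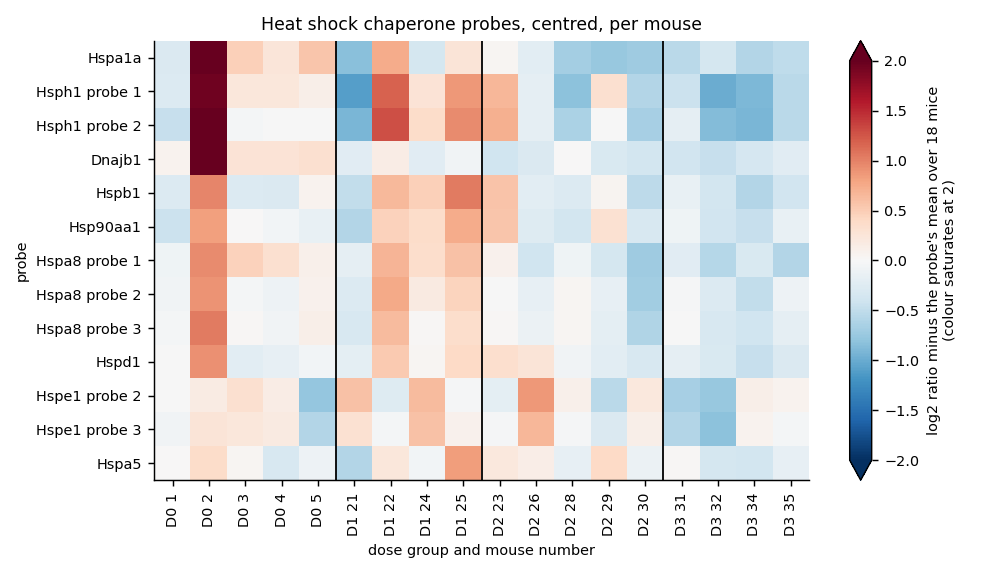
Log2 ratio of each of the 13 tested probes (rows) in each of the 18 mice (columns, ordered by dose group), minus the probe's mean over all mice. Colours run from blue (below the mean) to red (above) and saturate at 2. D0 mouse 2 is red in every row except for the pale Hspe1 rows, D1 mouse 21 is mostly blue, and the D3 columns are blue in most rows.

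The excess of control mouse 2 over the mean of the other 4 controls was 9.61-fold for Hspa1a, 3.95-fold for Dnajb1, and 3.68-fold and 4.67-fold for Hsph1. It was 2.25-fold for Hspb1, 1.97-fold for Hsp90aa1, 1.67-fold to 2.05-fold for Hspa8 and 2.03-fold for Hspd1. The smallest excesses were those of Hspa5 (1.38-fold) and Hspe1 (1.18-fold and 1.25-fold). Mouse 2 was the highest control in 12 of the 13 probes, against 20.8% of all tested probes, and the highest of all 18 mice in 9. In 8 of the 13 it stood apart from the other controls by Dixon's criterion, a gap to the next mouse of over 0.71 of the range of the group, against 0.713% of all tested probes.

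The array of mouse 2 had a share of spots well above background in red of 57.3%, within the range of 54.5% to 64.7% over all arrays. In cell type markers mouse 2 was the lowest of the 5 controls in 7 of 11 lists, among them alveolar type 2 (5.31 against a highest control of 5.98), endothelium (4.68 against 5.18) and B cells (0.69 against 2.01). How often mouse 2 was the lowest control over all probes was not counted. It was the highest control for skeletal muscle genes (-0.077 against a lowest control of -0.73). It was also the highest control in 8 of 9 immediate early genes, such as Nr4a1 (-0.14 against a mean of -1.31 in the other controls) and Atf3 (-0.27 against -1.15). The part of these features in the chaperone levels of mouse 2 was not tested.

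Mice also differed within the dosed groups, in many of these genes at once. In D1, mouse 22 was highest in 8 of 13 probes (23.7% of all probes) and mouse 21 lowest in 11 (24.5%). In D2, mouse 23 was highest in 7 (20.0%) and mouse 30 lowest in 6 (16.2%), and in D3 mouse 31 was highest in 9 (22.2%) and mouse 34 lowest in 8 (25.0%). The SD of Hspa1a, Hsph1 and Dnajb1 in D0 lay between the 99.8th and the 99.97th percentile of all tested probes, and those of Hsph1 in D1 at the 99.6th and 99.7th. Without mouse 2 the D0 percentile was 96.0 for Hspa1a, 82.8 and 85.7 for Hsph1 and 33.5 for Dnajb1. Dnajb1 lay at the 64.8th, 56.2nd and 27.5th percentile in D1, D2 and D3, and Hspa1a at the 99.2nd, 95.7th and 30.2nd.

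At the top dose 2 of the 13 chaperone probes were called, those of Dnajb1 and Hspa8 probe 1, both lower than in the controls. A probe was called where limma gave an adjusted p of 0.05 or less (Benjamini-Hochberg over all 30984 tested probes) together with a change of 1.5-fold or more. Dnajb1 fell by 0.98 ± 0.29 on the log2 scale (SE, n = 4 and 5; limma adjusted p = 0.0316) and Hspa8 probe 1 by 0.77 ± 0.20 (SE, limma adjusted p = 0.0148), each in 4 of 4 mice. In the same comparison 2.43% of all tested probes were called in either direction, and 1.23% of all tested probes were called lower. Hspa1a differed by -1.40 ± 0.51 (SE, limma adjusted p = 0.0837) and Hsph1 by -1.17 ± 0.43 by probe 1 (limma adjusted p = 0.0872) and -0.94 ± 0.45 by probe 2 (0.192), and neither gene passed. The errors of these 3 estimates were the largest among the members. For Hspa1a, Hsph1 probe 1, Dnajb1 and Hspa8 probe 1 the D3 and D0 mice did not overlap, as for 7.16% of all probes. The call of Dnajb1 was lost when any 1 D3 mouse was left out (limma adjusted p between 0.0585 and 0.0746), that of Hspa8 probe 1 without D3 mouse 35 (0.0522), and both with arrays centred on their medians instead of loess (0.848). Hspa1a was called without D0 mouse 1 (-1.69, limma adjusted p = 0.0414) and Hsph1 probe 1 without D1 mouse 21 (0.0438).

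Of the remaining probes at D3, Hspa8 probes 2 and 3 differed by -0.38 and -0.45, Hspb1 by -0.41, Hspd1 by -0.40, Hspe1 by -0.28 and -0.34, Hsp90aa1 by -0.31 and Hspa5 by -0.21, with limma adjusted p-values between 0.184 and 0.563. The estimate lay below 0 for 13 of 13 probes, against 50.4% of all tested probes. The median over the members was -0.41 on the log2 scale and that over all tested probes -0.0019. Among the cell type markers, 3 of 4 neutrophil probes were called at D3, with list means per mouse of 2.24 to 3.49 against 1.65 to 2.40 in D0, and 1 probe each of endothelium and of T and NK cells was called. Their part in the chaperone levels was not tested. The probes are not independent, since those of Hsph1, Hspa8 and Hspe1 each read 1 gene and all share the same control mice.

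Control mouse 2 carried a large part of these differences. Without it the log2 difference at D3 was -0.74 for Hspa1a (limma adjusted p = 0.0781), -0.79 and -0.50 for Hsph1 (0.191 and 0.413), and -0.58 ± 0.10 (SE) for Dnajb1 (0.00152). The adjusted p of Dnajb1 thus dropped as its spread did, but its change of 1.498-fold was just short of the threshold, and the call was lost. Hspa8 probe 1 remained called, at -0.62 (limma adjusted p = 0.0341). The estimate was still below 0 for 13 of 13 probes, with a median of -0.24. By the adjusted p alone 2 of 13 passed, against 11.6% of all probes. Leaving out mouse 2 removed 1 of 2 calls, while over all probes it moved the number of calls from 754 to 788 (2.54%).

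**Figure D3:**
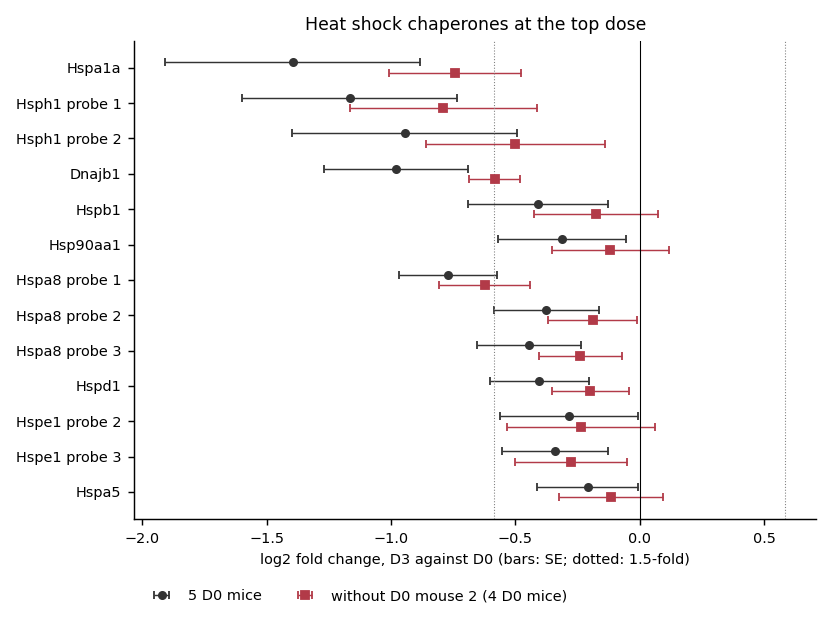
Log2 fold change at D3 against D0 (x axis) for the 13 tested probes (y axis), with all 5 control mice (black circles) and without D0 mouse 2 (red squares). Bars are the SE from limma and dotted lines mark 1.5-fold. All 26 estimates lie below 0, and those of Hspa1a, Hsph1 and Dnajb1 move furthest towards 0 when mouse 2 is left out, from -1.40 to -0.74 for Hspa1a.

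Within slides, D3 lay below D0 for Hspa1a, Dnajb1, Hsph1 probe 1 and Hspa8 probe 1. D3 minus D0 of Hspa1a was -2.06 on slide 1, which held mice 1 and 2, -0.93 on slide 2 and -1.02 on slide 3. For Dnajb1 the values were -1.57, -0.54 and -0.57, for Hsph1 probe 1 they were -1.55, -0.95 and -0.64, and for Hspa8 probe 1 they were -0.83, -0.78 and -0.81. On slide 1 without mouse 2, against mouse 1 alone, they became -0.16 for Hspa1a, -0.50 for Dnajb1, -0.44 for Hsph1 probe 1 and -0.32 for Hspa8 probe 1. Hsph1 probe 2 was then -0.067, and only Hspb1 (0.018) and Hsp90aa1 (0.19) lay above 0. A slide held at most 2 arrays of a group, and slide 3 held 1, and the values within single slides were not tested. In limma with slide as a block, where mouse 35 enters by its first array, the D3 difference was -1.36 for Hspa1a (adjusted p = 0.0855), -1.08 for Hsph1 probe 1 (0.112), -1.01 for Dnajb1 (0.0264) and -0.71 for Hspa8 probe 1 (0.025), and Dnajb1 and Hspa8 probe 1 were again called. The D3 array on slide 3 was a repeat of mouse 35, which also gave 1 of the D3 arrays on slide 2, so these slides share an animal. Hspe1 changed sign between slides, with -0.80 on slide 1 and 0.86 on slide 3 by probe 2.

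At the middle and low doses none of the 13 probes was called (0 by limma at both). The background of calls was 0.626% at D2 and 1.06% at D1. At D2, 3 probes had an unadjusted p under 0.05: Dnajb1 with a log2 difference of -0.90 (limma adjusted p = 0.0962), Hspa8 probe 1 with -0.64 (0.0805) and Hspa1a with -1.36 (0.166). Of all probes, 14.7% did so. Without control mouse 2 the D2 difference was -0.70 for Hspa1a (limma adjusted p = 0.182) and -0.50 for Hspa8 probe 1 (0.177). Without control mouse 2, Dnajb1 passed the adjusted p at D2 (limma adjusted p = 0.0114), as did 1.8% of all probes, with a difference of -0.50, short of 1.5-fold. The median over the members at D2 moved from -0.35 to -0.03 when mouse 2 was left out, and the number of estimates below 0 from 10 to 7 of 13. With all mice, 51.1% of all probes had an estimate below 0 at D2. Without both control mouse 2 and D2 mouse 23 the median was -0.22, with 9 of 13 below 0. With mouse 23 moved to D1, the D2 median was -0.40, again 0 probes were called by limma at D1 and D2, and Hspa8 probe 1 differed by -0.74 at D2 (limma adjusted p = 0.0506). The D2 differences of Hspb1 and Hsp90aa1 were then -0.28 and -0.20, against -0.11 and -0.06 as labelled, and that of Hsph1 probe 1 was -0.76, against -0.57.

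At D1 the members did not go one way. Hspa1a (-0.94) and Dnajb1 (-0.72, the 1 probe with an unadjusted p under 0.05, limma adjusted p = 0.163) had estimates below 0, which were -0.29 and -0.33 without control mouse 2, and Hspb1 (0.38), Hspe1 (0.26 and 0.23) and Hsp90aa1 (0.20) had estimates above 0. Of all probes, 19.8% had an unadjusted p under 0.05 at D1. The estimate was below 0 for 4 of 13 probes, against 48.3% of all probes, and above 0 for 9. It was above 0 for 11 of 13 without control mouse 2, where Hspb1 differed by 0.61 (limma adjusted p = 0.169). Without D1 mouse 22 the median over the members at D1 turned from 0.10 to -0.04, and without D1 mouse 25 to -0.07. With mouse 23 in D1 it was 0.12, and 5 of 13 estimates were below 0.

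The mean levels of 4 of the 13 probes (Hspa1a, Hsph1 probe 1, Dnajb1 and Hspa8 probe 3) had the order D0, D1, D2, D3 from highest to lowest as labelled, against 6.23% of all tested probes, though without mouse 23 in D2 the level of Hspa1a was 0.087 higher in D3 than in D2. Without control mouse 2 the order was lost for Hsph1 probe 1 and Hspa8 probe 3. Their D0 means were then -0.16 and 0.49, below the D1 means of 0.075 and 0.66. No member was called between neighbours in that order. Between D0 and D1 the difference of Dnajb1 had an unadjusted p of 0.0216 (limma, adjusted p = 0.163), or 0.00508 without control mouse 2 (adjusted p = 0.074). Between D2 and D1 and between D3 and D2, 0 of 13 probes were called by limma, with 2 and 0 at an unadjusted p under 0.05, against 9.82% and 11.7% of all probes. The backgrounds of calls were 0% and 0.107%. The estimate was below 0 for 13 of 13 probes in both steps, against 50.1% and 51.4% of all probes. With mouse 23 in D1 it was below 0 for 12 of 13 probes from D1 to D2 (not Hspe1 probe 2) and for 11 of 13 from D2 to D3 (not Hspa1a and Hspa8 probe 2). Over a straight line through the group means, Hspa8 probe 1 was called, with a fitted difference of -0.87 from D0 to D3 (limma adjusted p = 0.00965), against 1.46% of all probes. The fitted difference of Dnajb1 was -0.86 (limma adjusted p = 0.0651), and without control mouse 2 it was -0.54 (0.00278), short of 1.5-fold, where 7.44% of all probes passed the adjusted p. All comparisons with D0 share the same control mice.

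The wider chaperone network comprised 72 further genes in 8 lists, of which 67 were tested. At D1 and D2, when 1.06% and 0.626% of all probes were called, none of its 87 tested probes was called (0 by limma). At D3, when 2.43% of all probes were called (1.23% lower), 1 of the 87 was called, lower. It was Dnaja1 (NM_001164671), another HSP40 partner of cytosolic HSP70, which fell by 0.99 ± 0.26 by 1 of its 2 probes (SE, limma adjusted p = 0.0167) and by the other differed by -0.29 (0.244). Its call held without control mouse 2 (-0.66, limma adjusted p = 0.00531). The number of list probes called at D3 was 0 with median centring and 2 with processed signals, with slide as a block or without D0 mouse 1, 4 or 5. At D1 it was 1 with processed signals or without D1 mouse 21, and at D2 1 without D0 mouse 1, without D0 mouse 4 or without both control mouse 2 and D2 mouse 23. Short of 1.5-fold, 4 probes passed the adjusted p higher and 4 lower at D3, when 12.4% of all probes passed it. They included Xbp1, a transcription factor of the unfolded protein response (-0.57, limma adjusted p = 0.00268), Dnajb4 (-0.48, 0.0177), the ER lectin Canx (0.33, 0.00728) and, highest of these, the HSP70 family member Hspa12b (0.46, 0.00358), which also passed the adjusted p at D1 (0.48, 0.00628). At D1 the other list probes that passed it were Dnajb4 (-0.46, limma adjusted p = 0.0424) and 1 Dnajc5 probe (-0.38, 0.0179), lower, against 4.74% of all probes. The other Dnajc5 probes differed by -0.05 and 0.12 at D1. At D3 the first Dnajc5 probe passed it lower (-0.44, limma adjusted p = 0.00297) and the last higher (0.25, 0.0419). By list, the median difference at D3 was -0.04 for HSP40 proteins (22 probes), -0.09 for cochaperones (18), -0.05 for further HSP70 and HSP110 proteins (12), -0.04 for ER chaperones (14), -0.01 for the chaperonin TRiC (7), -0.09 for further HSP90 proteins (3) and 0.08 for small heat shock proteins (7). Without control mouse 2 these medians turned to 0.004 for HSP40 proteins, 0.005 for cochaperones, 0.00013 for ER chaperones and 0.05 for TRiC. The number of list probes below 0 at D3 then went from 50 to 41 of 87, against 50.4% and 50.2% of all probes.

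The heat shock factors themselves were not called at any dose. Hsf1 (NM_008296) had mean log2 ratios of -0.45, -0.32, -0.48 and -0.44 in D0, D1, D2 and D3. Hsf2 (NM_008297) differed by -0.16 at D3 (limma adjusted p = 0.272), and Hsf4 (NM_001256042) by 0.36 (0.0138), short of 1.5-fold. Control mouse 2 was not the highest control in any of the 4 probes of this list, which also holds Hsbp1. It was so in 7 of 7 TRiC probes, 3 of 3 HSP90 probes, 12 of 18 cochaperone probes, 9 of 14 ER chaperone probes, 12 of 22 HSP40 probes, 5 of 12 HSP70 and HSP110 probes and 2 of 7 small heat shock protein probes, against the 20.8% of all probes given above. In none of the 4 probes of the cold-inducible genes Cirbp and Rbm3 was it the highest control.

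The genes outside the members whose pattern over the 18 mice was most like that of the inducible members were sought by Pearson's r with the mean of the Hspa1a, Hsph1 and Dnajb1 probes, each centred. The highest were Cacybp (0.958), Dnaja1 (0.941), Slc5a3 (0.933), Bag3 (0.901), Chordc1 (0.896), Mkks (0.891), Ppid (0.883) and Parp3 (0.881). Bag3 and Chordc1 are cochaperones of HSP70 and HSP90, Ppid is a cyclophilin that binds HSP90, Cacybp binds the ubiquitin ligase partner Siah1, and Slc5a3 carries myo-inositol into the cell. For all 8 genes control mouse 2 was the highest of the 18 mice. This largely follows from the choice by r, since mouse 2 stood far above all others in the mean used. Without mouse 2, r was between 0.684 (Bag3) and 0.899 (Cacybp). After subtraction of group means, which leaves mouse 2 apart from the other controls, r was between 0.819 (Ppid) and 0.976 (Cacybp). The lowest r belonged to Tinf2 (-0.873), Herc3 (-0.826), Rcbtb1 (-0.823) and Zfp688 (-0.816). In each of these control mouse 2 was the lowest of 18, which the choice by r favours in the same way. Of the 12 genes, Dnaja1 was the only 1 called at D3.

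**Figure D4:**
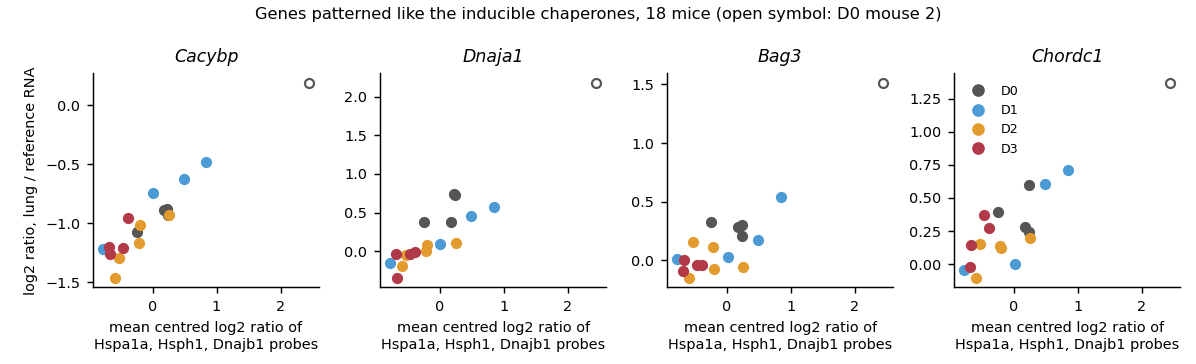
Log2 ratio of Cacybp, Dnaja1, Bag3 and Chordc1 (y axes) against the mean centred log2 ratio of the Hspa1a, Hsph1 and Dnajb1 probes (x axes) in 18 mice coloured by dose group. D0 mouse 2 (open symbol) stands alone at the upper right at 2.44 on the x axis, and the other 17 mice lie between -0.77 and 0.84, with r without mouse 2 of 0.899 for Cacybp and 0.684 for Bag3.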

How the data were processed

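Scanner files of 19 two-colour Agilent arrays from 18 mice were analysed. Deposited intensity values are median spot signals without normalization, with a second set corrected by the scanner software (Feature Extraction 11.0.1.1 per the file headers). A deposited table of log2 ratios, normalized by the authors, covers the same arrays. Control spots and outlier spots were dropped. Following the methods of the study, no background was subtracted from the medians, which were normalized by loess (span 0.3), and spots of a probe were averaged. The arrays of mouse 35 were averaged. Probes well above background in red in at least 4 mice of 1 group were tested, and 27235 of 28685 RefSeq-type identifiers matched a gene table of GRCm38.p6.

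Comparisons used limma 3.58.1 (R 4.3.3), with 1 model over the 4 groups, without covariates, and p-values were adjusted over all 30984 tested probes. The study itself used MAANOVA. The fit was tested on simulated data. Members were named by rule, as every probe of the 10 genes. The further lists comprised 72 chaperone genes, immediate early and cold-inducible genes and cell type markers, of which list members called at a dose, the heat shock factors, and the 8 highest and 4 lowest genes by r are named. Genes named beyond these (Xbp1, Dnajb4, Canx, Dnajc5, Hspa12b, Hsbp1, Cirbp, Rbm3, Nr4a1, Atf3) were chosen after their values were seen. The members and lists were chosen with earlier results of these data known. No dyes were swapped, so ratios are open to dye bias, and the number of arrays limits the precision. Alternatives covered normalization, signal, filter, slide, weights, mouse 23, mouse 35, the call rule and each mouse left out. Normexp was run on median signals, since the files hold no mean signals.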

Additional observations from a re-analysis of the deposited data

Results flagged for a closer look

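In 10 of 52 sets of 1 member probe and 1 group, the highest or lowest mouse stood apart from the others by Dixon's criterion, which chance alone meets in about 1 of 20 sets and which 5.05% of such sets over all tested probes met. Control mouse 2 was the highest of 5 in 8 of these, with log2 ratios of 4.00 for Hspa1a, 2.16 for Dnajb1, 1.72 and 1.81 for Hsph1, 2.84 for Hspb1, 0.89 and 1.52 for Hspa8 probes 2 and 3 and -0.29 for Hspd1. The sets are not independent, since 1 mouse gave all 8. In D2, mouse 28 was the highest of 5 for Dnajb1 (-0.041) and mouse 30 the lowest of 5 for Hspa8 probe 2 (-0.70).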

How the results depend on the processing

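No paired analysis was possible because the groups share no mouse numbers. The number of the 13 member probes called at D3 was 2, against 1 with the scanner software's processed signals or without mice 2 and 23, 0 with median centring, and 0 to 3 when each mouse was left out. The call of Dnajb1 was lost with median centring (-0.67, limma adjusted p = 0.848), processed signals (-0.997, 0.058), without D0 mouse 2 and without D3 mouse 31 (0.0705), 32 (0.0746), 34 (0.0585) or 35 (0.0597). Hspa8 probe 1 lost its call with median centring and without D3 mouse 35 (0.0522). Hspa1a was called without D0 mouse 1 (-1.69, 0.0414) and Hsph1 probe 1 without D1 mouse 21 (0.0438). Over dose, 0 probes were called with median centring, 2 with array weights, and 1 to 2 without single mice. Median centring moved the median of all probes to 0.17 at D1, 0.12 at D2 and 0.06 at D3, and calls over all probes from 328, 194 and 754 to 12, 18 and 98. Under median centring 12 of 13 member estimates stayed below 0 at D3, and 13 of 13 lay below the shifted median. Processed signals gave 639, 348 and 1371 calls over all probes. The causes were not tested.

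No called value changed sign. Under median centring the uncalled log2 differences turned for Hsph1 probe 1 (0.17) and Hspa8 probe 3 (0.40) at D1, Hspb1 (0.12), Hsp90aa1 (0.19) and Hspd1 (0.14) at D2, and Hspa5 (0.037) at D3. Hspa8 probe 3 at D1 was 0.089 with processed signals and 0.098 with the deposited table, and Hspb1 at D2 was 0.0070 with the red channel alone. Hspa8 probe 1 at D1 was -0.0057 with slide as a block (mouse 35 then by its first array), -0.0042 with array weights and -0.046 with mouse 23 in D1. Without mice 2 and 23, Hsph1 probe 1 (0.23) and Hspa8 probe 3 (0.17) at D1 and Hspd1 (0.018) at D2 turned. That last setting and normexp on median signals were chosen after seeing the data. When each mouse was left out, D1 differences ran from -0.44 to 0.32 and -0.19 to 0.55 for Hsph1, from -0.099 to 0.19, -0.038 to 0.31 and -0.19 to 0.17 for Hspa8, from -0.019 to 0.30 for Hspd1 and from -0.14 to 0.34 for Hspa5. D2 differences ran from -0.28 to 0.12 for Hspb1, -0.20 to 0.14 for Hsp90aa1, -0.19 to 0.10 for Hspd1, and -0.080 to 0.27 and -0.060 to 0.18 for Hspe1.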
